A study of Mus musculus with 13 samples.

Results

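The genes described here are 37 transport, channel, pump and marker genes of the thick ascending limb of the loop of Henle, the distal convoluted and connecting tubule, and the collecting duct. They were chosen by name from a table of 46958 genes measured in purified mouse glomeruli, and all 37 names had a row. By textbook role, 9 are genes of the thick ascending limb, 8 of the distal convoluted and connecting tubule, 9 of principal cells and 10 of intercalated cells, and Cdh16 is shared by these segments. Read counts from mRNA libraries were available for 13 libraries of renal glomeruli from mice aged 6 months on a mixed C57/BL6x129/SVxBALB/c background. The series title concerns the toxicity of monoclonal free light chains in light chain deposition disease (LCDD). There were 4 libraries of genotype kFRA (LCDD), 4 of genotype DH-LMP2A, which the labels name without describing, and 5 of wild type (WT). The labels give no promoter, allele or treatment for any of them. All LCDD and DH-LMP2A libraries and 2 of the WT libraries are pools of 3 mice, and the remaining 3 WT libraries are single mice. Glomeruli were isolated with magnetic beads, so tubule is not the tissue named in the labels.

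The titles begin with NS and a 6-digit code whose meaning is not stated. Replicates 1, 2, 3 and 4 of LCDD and of DH-LMP2A carry NS161202, NS170411, NS171018 and NS180319 in that order. WT replicate 1 carries NS161202, replicate 2 carries NS171018, and the single-mouse replicates 3, 4 and 5 all carry NS180319, so WT has no library under NS170411. Total counts ran from 16687509 to 30587890 per library. The 37 genes took 0.0588% to 0.368% of them, which is 15019 to 112585 counts. Podocyte markers, which define the filtering epithelium of the glomerulus, summed to 7285 to 34690 CPM, the count scaled by the library total and a TMM factor, and thus exceeded the 37 genes in every library. Nothing in the labels says that the pools of a genotype came from separate litters or preparations, so p-values measure the spread between these libraries.

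The thick ascending limb takes up sodium, potassium and chloride through the cotransporter Slc12a1 and secretes uromodulin (Umod), the most abundant protein of normal urine. The distal convoluted tubule takes up sodium and chloride through Slc12a3, and the connecting tubule reabsorbs calcium through Trpv5, calbindin (Calb1) and the exchanger Slc8a1. In the collecting duct, principal cells take up sodium through the epithelial channel and water through aquaporins, and intercalated cells move acid and base with a proton pump, Slc4a1 and Slc26a4.

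The promoters of 4 markers are printed because these genes stand for 3 of the segments and differ in how they vary across libraries. They come from RefSeq (GRCm38.p6) and cover at most 250 bases upstream of the annotated start, ending before the first base of the deposited gene row. Capitals mark matches to any of 3 motifs, searched on both strands: GTTAAT (part of the HNF1 site), TGTTTAC (forkhead site) and TATAAA (core promoter box). The Umod promoter lies at chr7:119479263-119479512 on the minus strand, that of Slc12a1 at chr2:125152350-125152504 on the plus strand, that of Slc12a3 at chr8:94328958-94329191 on the plus strand and that of Slc26a4 at chr12:31559985-31560234 on the minus strand.
Umod: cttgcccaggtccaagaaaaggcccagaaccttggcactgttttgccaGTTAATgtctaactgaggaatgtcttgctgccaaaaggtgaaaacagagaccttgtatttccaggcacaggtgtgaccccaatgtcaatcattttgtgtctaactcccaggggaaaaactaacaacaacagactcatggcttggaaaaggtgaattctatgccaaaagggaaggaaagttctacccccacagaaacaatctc
Slc12a1: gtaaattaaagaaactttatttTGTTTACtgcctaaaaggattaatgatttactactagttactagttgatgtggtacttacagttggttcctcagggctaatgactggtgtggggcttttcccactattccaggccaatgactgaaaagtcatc
Slc12a3: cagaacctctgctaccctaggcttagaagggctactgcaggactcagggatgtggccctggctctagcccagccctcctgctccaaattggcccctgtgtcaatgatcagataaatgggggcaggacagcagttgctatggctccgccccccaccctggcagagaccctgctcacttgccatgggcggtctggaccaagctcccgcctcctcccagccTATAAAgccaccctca
Slc26a4: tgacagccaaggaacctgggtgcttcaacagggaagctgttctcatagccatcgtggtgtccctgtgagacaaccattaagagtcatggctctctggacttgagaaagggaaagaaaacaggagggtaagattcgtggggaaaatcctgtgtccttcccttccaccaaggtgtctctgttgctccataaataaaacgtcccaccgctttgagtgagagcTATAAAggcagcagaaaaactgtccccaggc

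Promoter windows were found for 27 of the 37 genes (32 windows of 250 bases). GTTAAT occurred in 3 of these 32 windows (9.38%) and in 6.43% of all 32851 windows of the table. TGTTTAC occurred in 4 (12.5%) against 3.17%, and TATAAA in 6 (18.8%) against 12.4%, so each share rests on few windows. The forkhead match of Slc12a1 begins 228 bases before its RefSeq start, and the TATAAA matches of Slc12a3 and Slc26a4 begin 32 and 31 bases before theirs. For Slc12a1 and Slc12a3 the deposited row begins upstream of the RefSeq start. Their printed sequences, of 155 and 234 bases, therefore end before that start. The matches are descriptions of letters in these windows, and the read counts do not bear on them.

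Per kilobase of exon, the 37 genes covered a wide range of levels in these glomeruli. The highest means over the 13 libraries were those of Umod (186.6 CPM per kilobase), Fxyd2 (156.7) and Egf (44.1), followed by Cdh16 (32.5), Slc12a1 (29.4) and Slc12a3 (27.3). Principal cell genes were led by Aqp2 (10.2) and Hsd11b2 (3.58), and intercalated cell genes by Tmem213 (8.59) and Atp6v1b1 (2.32). At the low end stood Aqp4 (0.118) and Elf5 (0.0129). Elf5, a transcription factor of principal cells, was at 0 counts in 7 libraries and at or below a floor of 3 counts in 10, and it alone failed the filter on low counts, so 36 members were tested. Aqp4 was at or below that floor in 4 libraries, Avpr2, Foxi1 and Aqp6 in 2 each, and Trpv5, Atp6v0d2 and Hepacam2 in 1 each. Avpr2, the vasopressin receptor, shares 2347 exon bases (81.3% of its exons) with the antisense gene Arhgap4. Tmem213 shares 62 bases (9.83%) with the antisense gene Atp6v0a4, and the strand setting of the counting is not stated, so these levels are uncertain.

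**Figure D1:**
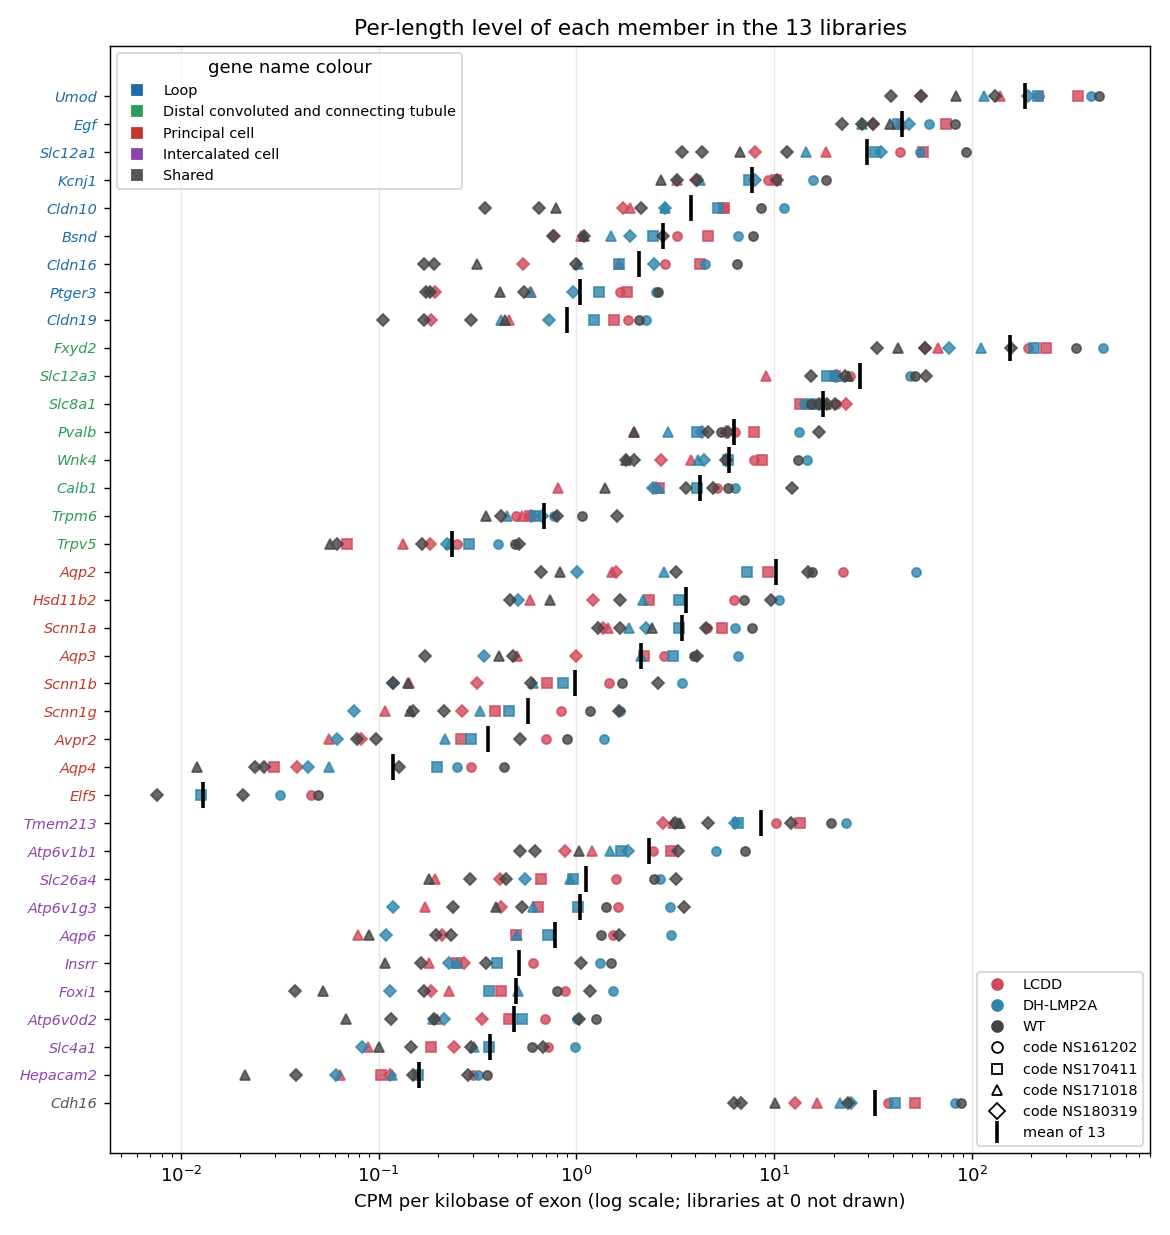
Level of each of the 37 genes in each library, in CPM per kilobase of exon on a log axis, with colour for the genotype, marker shape for the title code and a bar for the mean of 13 libraries. Points of the 3 genotypes overlap for the genes shown, and circles (code NS161202) lie toward the right of most rows.

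Of the 9 thick ascending limb genes, all but Egf were above their own mean log2 CPM by 0.53 or more in each of the 3 libraries of code NS161202; Egf was 0.08 above in LCDD replicate 1. Umod (chr7:119462866-119479255, minus strand, 11 exon blocks in the deposited annotation) stood at 537, 850.3, 343 and 136 CPM in LCDD replicates 1 to 4. In DH-LMP2A it stood at 987, 536, 284 and 474 CPM in the same order of codes. In WT it stood at 1087, 205, 96.1, 137 and 323 CPM in replicates 1 to 5. The highest library was 11.3-fold above the lowest, both were WT, and the 3 genotypes overlapped over most of the range.

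Slc12a1 (chr2:125152505-125230002, plus strand) had 249, 328, 105 and 45.9 CPM in LCDD replicates 1 to 4. Its DH-LMP2A values were 315, 186, 83.9 and 199.9 CPM. Its WT values were 537, 38.7, 19.7, 24.9 and 67.2 CPM in replicates 1 to 5. WT replicate 1 was above every other library and the other 4 WT libraries were below every DH-LMP2A library, a 27.3-fold range within WT alone.

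Egf (chr3:129677565-129755316, minus strand), the precursor of epidermal growth factor made by the thick limb and the distal convoluted tubule, varied least among the loop genes. It stood at 487, 829.7, 493 and 355 CPM in LCDD, at 686, 476, 312 and 541 CPM in DH-LMP2A, and at 929, 434, 249, 314 and 358 CPM in WT. That is a 3.73-fold range, against 21.4-fold for Cldn19 and 32.4-fold for Cldn10.

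Bsnd (chr4:106483456-106492283, minus strand) encodes barttin, an accessory channel subunit of this segment. It had 8.90, 12.7, 2.91 and 2.13 CPM in LCDD, 18.1, 6.74, 4.11 and 5.15 CPM in DH-LMP2A, and 21.5, 3.03, 3.00, 2.10 and 7.58 CPM in WT. Cldn10 (chr14:118787908-118875489, plus strand), a claudin of cation-selective tight junctions, had 14.5, 14.5, 4.84 and 4.45 CPM in LCDD, 29.0, 13.5, 7.25 and 7.25 CPM in DH-LMP2A, and 22.3, 2.04, 1.68, 0.894 and 5.47 CPM in WT. For both genes the highest library of DH-LMP2A and of WT was the one of code NS161202.

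Cldn19 (chr4:119255414-119262438, plus strand), which with Cldn16 sets the calcium and magnesium permeability of the thick limb, had 7.75, 6.58, 1.94 and 0.788 CPM in LCDD. It had 9.57, 5.22, 1.77 and 3.09 CPM in DH-LMP2A and 8.86, 1.85, 0.720, 0.447 and 1.26 CPM in WT. Ptger3 (chr3:157566892-157645888, plus strand), a prostaglandin E2 receptor, had 9.43, 10.2, 3.34 and 1.10 CPM in LCDD, 14.4, 7.44, 3.31 and 5.46 CPM in DH-LMP2A, and 14.8, 2.35, 1.04, 0.984 and 3.08 CPM in WT. In both genes the libraries of codes NS161202 and NS170411 lay above those of NS171018 and NS180319 in every genotype that had them.

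Among distal convoluted and connecting tubule genes, Slc12a3 (chr8:94329192-94366213, plus strand) stood at 79.6, 67.2, 30.3 and 68.8 CPM in LCDD replicates 1 to 4. It stood at 161.6, 61.0, 69.3 and 67.5 CPM in DH-LMP2A, and at 169.9, 77.9, 51.0, 75.9 and 193.7 CPM in WT. DH-LMP2A replicate 1, WT replicate 1 and WT replicate 5 stood above the other 10 libraries, and no LCDD library passed 80 CPM.

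Fxyd2 (chr9:45403138-45410278, plus strand), the gamma subunit of the sodium pump, had 121.5, 149.9, 42.9 and 36.5 CPM in LCDD. It had 291.5, 129.8, 70.5 and 48.2 CPM in DH-LMP2A and 213, 26.7, 36.4, 21 and 99.5 CPM in WT. Slc8a1 (chr17:81388691-81649607, minus strand), named after its values were seen, was the steadiest of the 36 tested members. It ran from 39.8 to 68.2 CPM, a 1.71-fold range, and its means were 55.2 ± 12.1 CPM in LCDD (SD, n = 4), 46.9 ± 4.58 in DH-LMP2A (n = 4) and 52.4 ± 5.53 in WT (n = 5). The other 5 genes of these segments, Pvalb, Calb1, Trpm6, Trpv5 and Wnk4, had median levels of 0.716 to 18.3 CPM over the 13 libraries.

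Principal cell genes had the widest spread. Aqp2 (chr15:99579056-99584545, plus strand), the vasopressin-regulated water channel, had 31.6, 13.2, 2.15 and 2.25 CPM in LCDD replicates 1 to 4. It had 73.9, 10.4, 3.94 and 1.43 CPM in DH-LMP2A and 22.0, 1.17, 4.52, 0.939 and 20.9 CPM in WT. The highest and the lowest library differed 78.7-fold, and 4 libraries, those of code NS161202 and WT replicate 5, stood above the rest.

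Hsd11b2 (chr8:105518746-105523984, plus strand), which inactivates glucocorticoids in aldosterone-responsive cells, had 11.5, 4.29, 1.08 and 2.25 CPM in LCDD. It had 19.6, 6.11, 3.99 and 0.940 CPM in DH-LMP2A and 13, 1.36, 3.08, 0.850 and 17.8 CPM in WT. The same 4 libraries were the highest. The sodium channel subunits Scnn1a, Scnn1b and Scnn1g had median levels of 10, 1.60 and 0.970 CPM, and Aqp3, the basolateral water channel, 3.88 CPM.

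Slc4a1 (chr11:102348824-102366203, minus strand), the chloride-bicarbonate exchanger of acid-secreting cells and of red cells, had 3.53, 0.903, 0.431 and 1.18 CPM in LCDD. It had 4.82, 1.78, 1.48 and 0.403 CPM in DH-LMP2A and 2.91, 0.494, 1.44, 0.716 and 3.32 CPM in WT. Red cell markers summed to 183 to 1420 CPM, with 1300 CPM in WT replicate 3 and 342 CPM in WT replicate 5, and their part in the Slc4a1 level was not tested.

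Slc26a4 (chr12:31519827-31559969, minus strand), or pendrin, the exchanger of base-secreting cells, had 4.87, 2.03, 0.592 and 1.26 CPM in LCDD, 8.15, 2.96, 2.85 and 1.70 CPM in DH-LMP2A, and 7.63, 0.556, 1.36, 0.894 and 9.85 CPM in WT. Atp6v1b1 (chr6:83742990-83758855, plus strand), a subunit of the proton pump, had 10.7, 13.2, 5.28 and 3.86 CPM in LCDD. It had 22.2, 7.40, 6.45 and 8.01 CPM in DH-LMP2A and 31.4, 4.51, 2.72, 2.28 and 14.3 CPM in WT. For both genes WT replicates 1 and 5 were the highest of WT, and for Atp6v1b1 LCDD replicate 2 exceeded LCDD replicate 1.

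Tmem213 (chr6:38109255-38115809, plus strand) had 6.48, 8.58, 1.94 and 1.73 CPM in LCDD, 14.7, 4.15, 2.05 and 3.98 CPM in DH-LMP2A, and 12.2, 2.10, 2.00, 2.91 and 7.70 CPM in WT. Cdh16 (chr8:104614141-104624396, minus strand), a cadherin of tubular epithelium, had 112.5, 154.7, 49.3 and 38.3 CPM in LCDD, 245.9, 123, 64.4 and 73.7 CPM in DH-LMP2A, and 264, 30.2, 18.8, 20.3 and 70.9 CPM in WT. The loop genes and Cdh16 shared their highest LCDD library, replicate 2, with the exceptions of Cldn10 and Cldn19, which were higher in replicate 1.

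**Figure D2:**
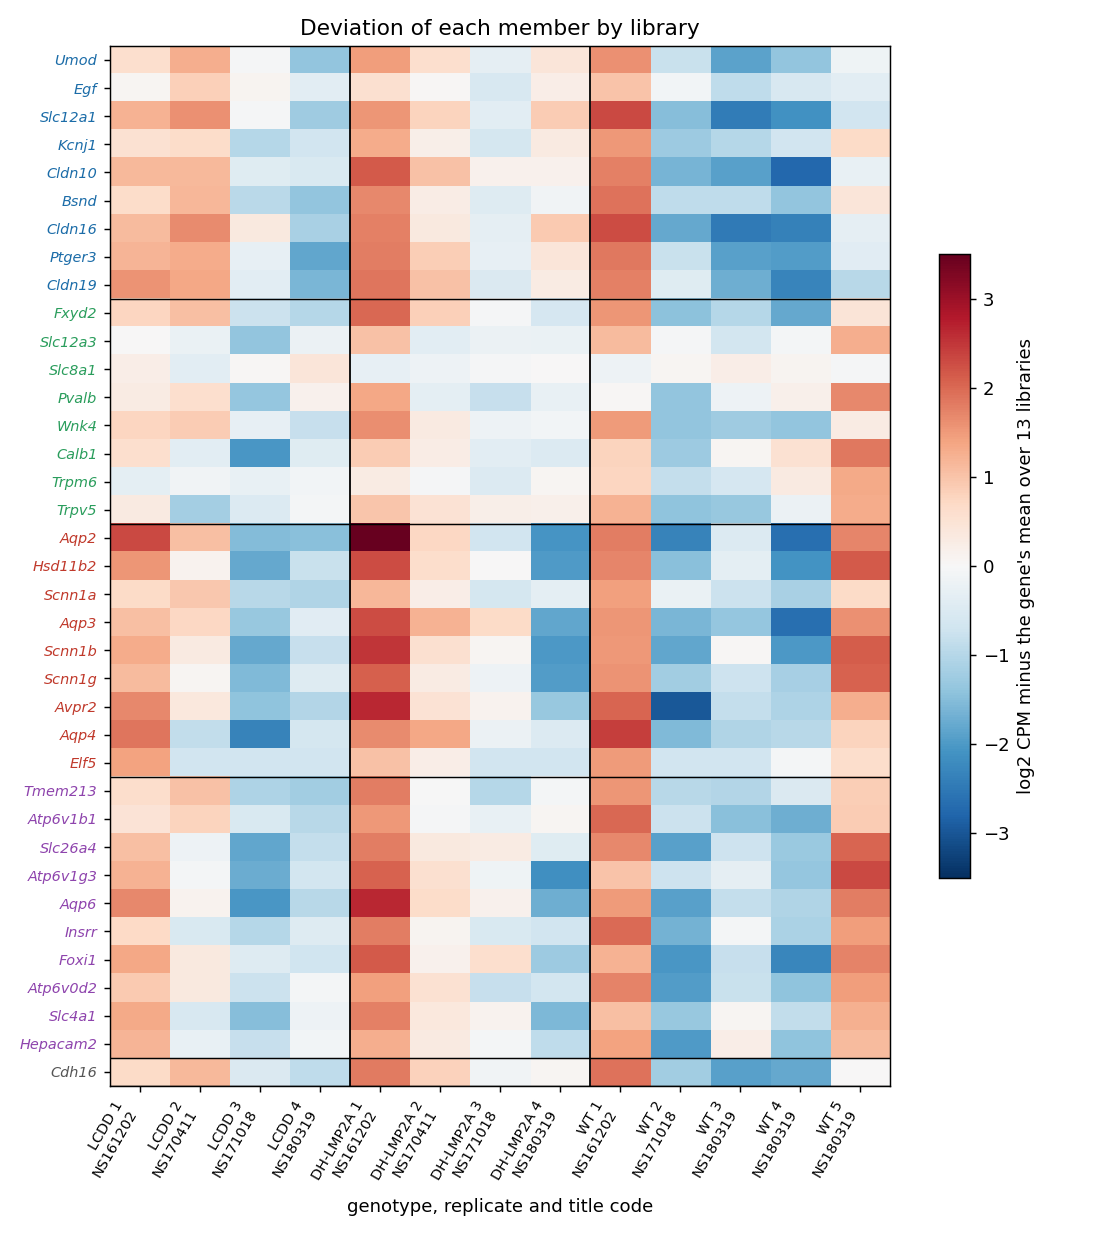
Log2 CPM of each gene minus its own mean over the 13 libraries, with rows grouped by role and columns by genotype, replicate and title code. Columns of code NS161202 are mostly red in each genotype, and WT replicate 5 is red for distal, principal and intercalated cell genes but not for most loop genes.

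No member passed the test between genotypes. In LCDD against DH-LMP2A 0 of 36 were called at an adjusted p under 0.05 (edgeR quasi-likelihood test, Benjamini-Hochberg over all genes tested), where 2% of all 16738 genes were. In LCDD against WT 0 of 36 were called against 1.84% of all genes, and in DH-LMP2A against WT 0 of 36 against 0.627%. At an unadjusted p under 0.05 edgeR also gave 0 of 36 in each comparison, against 13.1%, 12% and 12.5% of all genes. DESeq2 called 0 of 36 in each, where it called 4.85%, 4.34% and 2.74% of all genes. With the title code as a replicate block edgeR called 0 of 36 in each, where it called 6.1%, 3.2% and 3.36%, and at an unadjusted p under 0.05 it gave 0, 1 and 1 of 36. A count of 0 does not show that levels were alike.

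Fold changes of the markers were smaller than their errors in LCDD against DH-LMP2A, except for Slc12a3. On the log2 scale they were -0.29 ± 0.72 (SE) for Umod, -0.11 ± 0.96 for Slc12a1 and -0.55 ± 0.45 for Slc12a3. They were -0.87 ± 1.26 for Aqp2, -0.49 ± 0.78 for Slc4a1 and -0.83 ± 0.89 for Slc26a4, with edgeR adjusted p of 0.681 to 0.977 over the 6 genes. The mean of Aqp2 was 12.3 ± 13.9 CPM in LCDD (SD, n = 4), 22.4 ± 34.6 in DH-LMP2A (n = 4) and 9.91 ± 10.7 in WT (n = 5), so each SD exceeded its mean. For Umod the means were 467 ± 304, 570.4 ± 298 and 369.5 ± 410.2 CPM in the same order.

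Of the 36 members, 34 had a negative and 2 (Egf and Slc8a1) a positive log2 fold change in LCDD against DH-LMP2A. Their median was -0.48, against -0.00614 for all genes tested. Without DH-LMP2A replicate 1, and with LCDD replicate 1 of the same code kept, 29 members were positive and 7 negative. The median was then 0.28, and Umod, Slc12a1, Aqp2 and Slc4a1 changed sign. With all 13 libraries and the title code as a replicate block the median stayed negative, at -0.51. DH-LMP2A replicate 1 had the highest value of its genotype for 35 of the 36 members, where it was highest for 36.4% of all genes tested. With the level of proximal tubule markers as a covariate 25 members were positive and 11 negative.

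Against WT, 12 members were positive and 24 negative in LCDD, with a median of -0.22, and 23 were positive and 13 negative in DH-LMP2A, with a median of 0.20. These 2 comparisons share the WT libraries. In the edgeR fit with no block, the smallest adjusted p of a member in any genotype comparison was that of Slc12a3 in LCDD against WT, whose log2 fold change was -0.89 ± 0.44 (SE) with an edgeR adjusted p of 0.463. Its means were 61.5 ± 21.5 CPM in LCDD (SD, n = 4) and 113.7 ± 63.6 CPM in WT (n = 5). Transcripts of the Y chromosome summed to at most 0.0811 CPM in 4 WT libraries and to 27.0 CPM in WT replicate 2. They summed to 174, 21.1, 220 and 18.0 CPM in LCDD replicates 1 to 4 and to 111, 223, 68.3 and 126 CPM in those of DH-LMP2A. WT replicate 2 was thus above LCDD replicates 2 and 4, and the other WT libraries were below every LCDD and DH-LMP2A library. The levels also differed between the LCDD and DH-LMP2A pools of a code. In both comparisons with WT, genotype therefore cannot be fully told apart from sex as read from these transcripts. With these transcripts as a covariate the Slc12a3 value was -0.21, and with proximal tubule markers it was -1.36 (adjusted p of 0.943 and 0.0904).

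**Figure D3:**
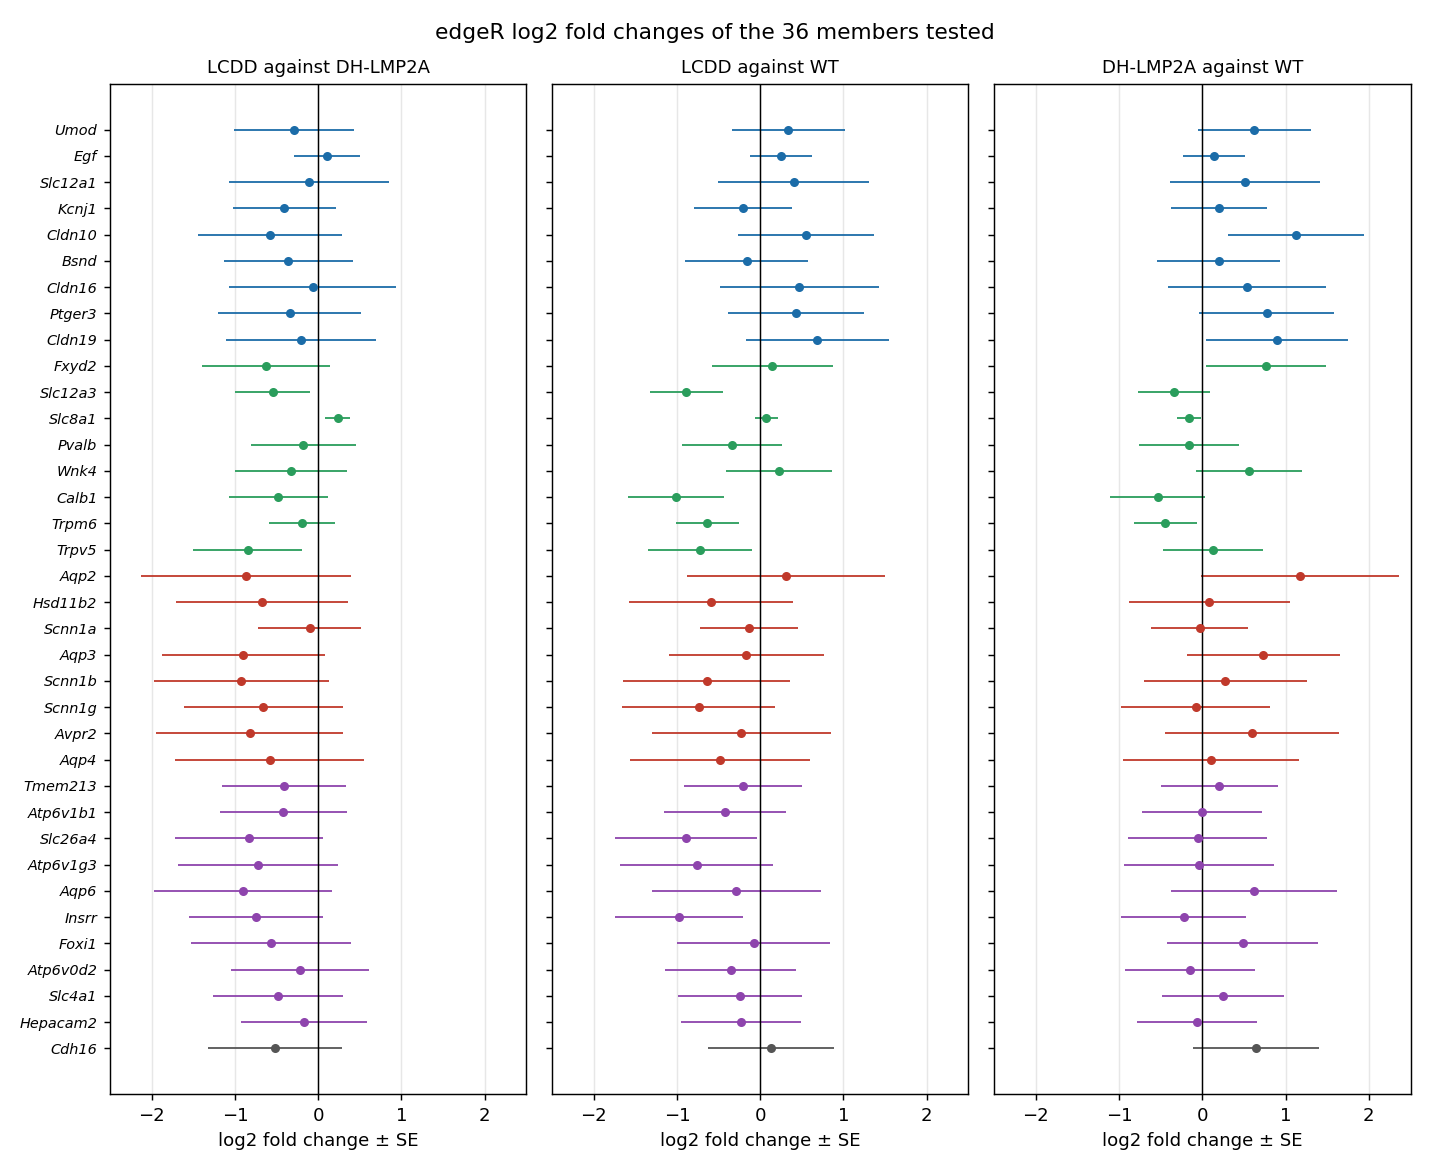
Log2 fold change of the 36 tested members in the 3 genotype comparisons, with bars of 1 standard error (SE) from edgeR and colours for the role groups. All members are left of 0 in LCDD against DH-LMP2A except Egf and Slc8a1, and none was called in any panel.

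Members were called for the title code and not for genotype. In a test of all 4 codes together (3 degrees of freedom, with genotype in the model), 14 of 36 members (38.9%) were called by edgeR, where 18.6% of all genes tested were. Loop genes made up 7 of the 14: Umod, Slc12a1, Kcnj1, Bsnd, Cldn10, Cldn19 and Ptger3, out of 9. The others were Wnk4 and Fxyd2 of 8 distal genes, Scnn1a, Aqp4 and Avpr2 of 8 principal cell genes tested, Tmem213 of 10 intercalated cell genes, and Cdh16. Kcnj1 is the potassium channel that recycles potassium in the thick limb, and Wnk4 is a kinase upstream of Slc12a3. The smallest adjusted p was 0.00997 for Cldn19, and Aqp2 missed the threshold at 0.0594. DESeq2 called 25 of 36 members, where it called 32.9% of all genes tested.

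Relative to code NS161202, fitted log2 values were lower under code NS171018 for the genes named here except Slc8a1. The coefficient was -1.65 ± 0.55 (SE) for Umod, -2.52 ± 0.76 for Slc12a1, -2.23 ± 0.49 for Cldn19, -2.14 ± 0.53 for Fxyd2 and -4.11 ± 1.13 for Aqp2. Under code NS180319 it was -1.91 ± 0.47 for Umod, -2.57 ± 0.63 for Slc12a1, -2.80 ± 0.42 for Cldn19 and -3.03 ± 1.05 for Aqp2. Under code NS170411 it was smaller, -0.37 ± 0.64 for Umod and -0.70 ± 0.54 for Cldn19. Slc8a1 had a coefficient of 0.10 ± 0.14 under code NS171018.

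Every library of code NS161202 was above every library of code NS171018 for 33 of the 36 members (91.7%), against 15.1% of all genes tested. It was below for 0 members, against 17.3% of all genes. Each of these codes has 1 library of each genotype. In LCDD the highest library was replicate 1 (NS161202) for 20 members and replicate 2 (NS170411) for 14, where it was so for 30.2% and 23.4% of all genes tested. In WT it was replicate 1 for 21 members and replicate 5 for 14, against 22.4% and 10.2% of all genes.

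Other tubular markers moved with the code as well. The 15 proximal tubule markers summed to 1895, 4238 and 3594 CPM in the 3 libraries of code NS161202 and to 72.1 to 901 CPM in those of NS180319, and 11 of the 15 were called in the code test. Under NS170411 they summed to 2210 CPM in LCDD and 3890 in DH-LMP2A, and under NS171018 to 220.5 to 1640 CPM. All 10 podocyte markers were called, in the opposite direction: their sums were 7285, 16580 and 15360 CPM under code NS161202 and 25490 to 34690 CPM under codes NS171018 and NS180319. Under NS170411 the podocyte sums were 13390 CPM in LCDD and 21500 in DH-LMP2A. Macula densa markers, from cells at the end of the thick limb that touch the glomerulus, summed to 42.1 to 62.0 CPM under code NS161202 and to 8.22 to 22.6 CPM under the last 2 codes, and 3 of 4 were called. Under NS170411 the macula densa sums were 56.7 CPM in LCDD and 25.7 in DH-LMP2A. Of mesangial, glomerular endothelial and red cell markers, 0 of 6, 0 of 6 and 0 of 5 were called by edgeR, and at an unadjusted p under 0.05 the counts were 2, 5 and 0. DESeq2 called 2, 5 and 0 of them. For the 5 leukocyte markers the edgeR count was 1, the count by unadjusted p was 3 and the DESeq2 count was 3. Of all genes tested, edgeR called 18.6% for the code and gave 37.7% at an unadjusted p under 0.05, and DESeq2 called 32.9%. In bulk RNA, fewer cells of a type and less RNA per cell cannot be told apart.

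With proximal tubule markers as a covariate, 0 of 36 members were called for the code, and 4 of all 16738 genes were. Without the 3 libraries of code NS161202 the count was 0 of 35, with 1 gene called of all 16654 tested. It was 1 without WT replicate 1, the only WT library of that code, where 14.9% of all genes were called, and 28 without WT replicate 5, where 16.4% were. Leaving out LCDD replicate 1 or 3, DH-LMP2A replicate 1 or 3, or WT replicate 3 gave 8, 7, 5, 7 and 9 calls, where 11%, 10.6%, 11.7%, 11.9% and 9.01% of all genes were called. In LCDD and DH-LMP2A alone, where each code has 1 library per genotype, 1 of 35 members (Aqp2, edgeR adjusted p = 0.0487) was called, against 0.387% of all genes. Without the single-mouse WT libraries 2 of 36 were called, against 0.959% of all genes.

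The members did not move as one block, and loop genes parted from collecting duct genes in several libraries. In the mean deviation of a role group from each gene's own mean (log2 CPM), LCDD replicate 2 had 1.22 for loop genes and 0.23 for principal cell genes. DH-LMP2A replicate 4 had 0.39 for loop genes and -1.40 for principal cell genes. WT replicate 5 showed the reverse, with -0.23 for loop genes, 1.02 for distal genes, 1.44 for principal and 1.49 for intercalated cell genes. WT replicate 1 was high throughout, with 1.78, 0.85, 1.72 and 1.51 in that order.

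**Figure D4:**
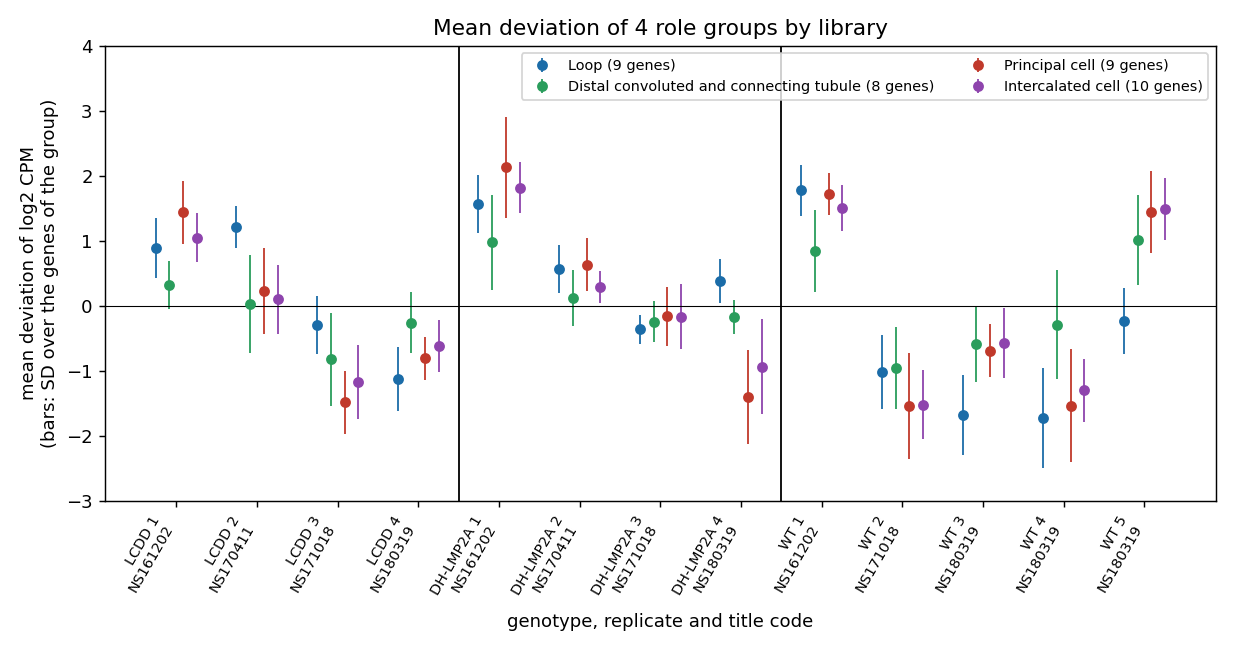
Mean deviation of log2 CPM of each role group in each library, with bars for the SD over the genes of the group, and libraries ordered by genotype and replicate with the title code beneath. Loop genes (blue) stand above principal cell genes (red) in LCDD replicate 2 and DH-LMP2A replicate 4 and below them in WT replicate 5.

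Ratios taken within a library, which do not depend on its total, showed the same spread. The summed per-length level of loop genes over that of principal cell genes was lowest in WT replicate 5, at 5.04, and highest in DH-LMP2A replicate 4, at 66.0. The per-length level of Slc12a3 over Slc12a1 was 3.51 to 5.31 in WT replicates 2 to 5, against 0.551 in WT replicate 1, 0.357 to 2.61 in LCDD and 0.571 to 1.44 in DH-LMP2A. Umod over Slc12a1 was 11.2 to 12.8 in WT replicates 2 to 5, against 4.72 in WT replicate 1 and 5.03 to 7.90 in the LCDD and DH-LMP2A libraries. In both ratios those 4 WT libraries stood apart from the other 9, and these ratios were picked after their values were seen and were not tested.

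Comparing the LCDD and the DH-LMP2A pool under each code, the direction changed from code to code. Of all genes tested, 50.2%, 50.1%, 50.6% and 47.5% were higher in the LCDD pool under NS161202, NS170411, NS171018 and NS180319. Under NS161202 the LCDD pool was lower for 34 of the 37 members and higher for 3, with a median log2 difference of -0.78. Under NS170411 it was higher for 19 and lower for 18 (median 0.10), and all 9 loop genes were higher. Under NS171018 it was higher for 9 and lower for 27 (median -0.55), with principal cell genes at -1.54. Under NS180319 it was higher for 17 and lower for 19 (median -0.13): all 9 loop genes were lower, at a median of -1.80, while 6 of 9 principal and 7 of 10 intercalated cell genes were higher. Each code holds 1 library of each of these genotypes, so these differences have no replicate within a code. Y-linked transcripts also differed within these pairs, with 21.1 CPM in LCDD against 223 in DH-LMP2A under NS170411 and 220 against 68.3 under NS171018. Their part in these differences was not tested.

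**Figure D5:**
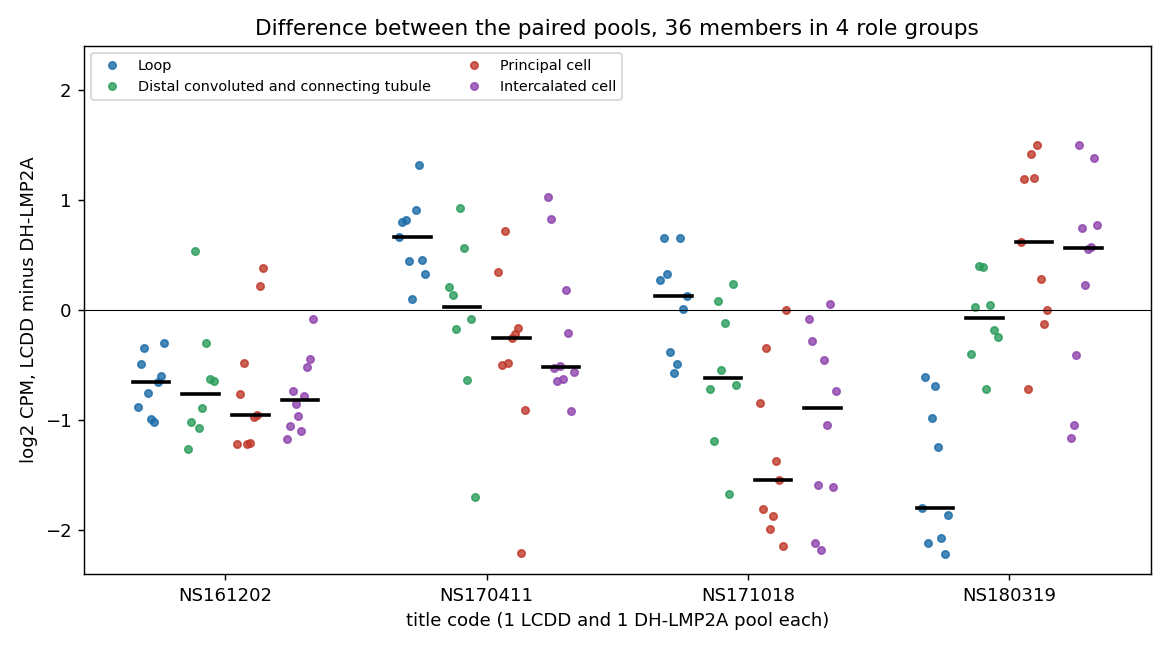
Log2 CPM of the LCDD pool minus that of the DH-LMP2A pool of the same title code, one point per gene for 36 genes in 4 role groups, with a bar for the median of each group. Loop genes lie above 0 under NS170411 and below 0 under NS161202 and NS180319.

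The spread of the members was large even among single mice of one genotype and one code. WT replicates 3, 4 and 5 are 3 WT mice that share code NS180319. The range over these mice had a median of 2.12 on the log2 scale for the 36 members, against 0.296 for all genes tested. Replicate 5 was the highest of the 3 for 35 of the 36 members (97.2%), against 38.2% of all genes. Aqp2 differed 22.3-fold between them (21 to 516 counts), Hsd11b2 20.9-fold, Slc12a3 3.80-fold, Slc12a1 3.41-fold and Umod 3.36-fold, but Egf 1.44-fold and Slc8a1 1.21-fold. Proximal tubule markers summed to 177, 72.1 and 468 CPM in these mice, highest in replicate 5 as well, and podocyte markers to 32510, 34690 and 25490 CPM, lowest in replicate 5. The part of either in these ranges was not tested.

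Over all 13 libraries the SD of log2 CPM had a median of 1.18 for the 36 members and 0.346 for all genes. A total of 28 members were in the most variable 10% of genes. The 15 proximal tubule markers had an SD of 1.62 (Slc22a8) to 2.15 (Kap), so a wide spread was not particular to the members. By role the median SD was 1.36 for loop, 0.908 for distal, 1.59 for principal and 1.16 for intercalated cell genes.

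A further list of 47 genes of the same segments, with no member in it, held 46 that were tested. Stk39, a kinase that activates the sodium-chloride cotransporters, was the only one edgeR called between genotypes without a block, which is 2.17% of the list against 2% of all genes in LCDD against DH-LMP2A and 1.84% in LCDD against WT. It stood at 59.6, 48.2, 35.3 and 50.2 CPM in LCDD, at 27.3, 23.3, 25.4 and 26.0 CPM in DH-LMP2A, and at 26.8, 21, 22.1, 22.1 and 26.5 CPM in WT, so that every LCDD library was above all others. Its log2 difference was 0.92 ± 0.15 (SE, edgeR adjusted p = 0.00722) against DH-LMP2A and 1.03 ± 0.14 (adjusted p = 0.00218) against WT. The second call was lost without the 3 single-mouse WT libraries (0.97, edgeR adjusted p = 0.134) and with Y-linked genes as a covariate (1.24, adjusted p = 0.104). All 6 mesangial markers were also positive in LCDD against DH-LMP2A, and edgeR called 2 of them. Against WT 5 were positive and 1 negative, and 1 was called. Which cells the Stk39 reads came from, and the part of mesangial RNA in them, was not tested.

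With the title code as a replicate block, edgeR called 3 of 46 genes of that list in LCDD against DH-LMP2A and 2 in LCDD against WT, where it called 6.1% and 3.2% of all genes, so both counts are near the background. They were Stk39 and Slc26a7 in both and Vdr in the first. Slc26a7, a chloride-bicarbonate exchanger of intercalated cells, had 1.46, 3.80, 7.97 and 5.91 CPM in LCDD, 5.76, 23.8, 18.9 and 32.5 CPM in DH-LMP2A, and 10.2, 16.7, 42.3, 40.7 and 26.4 CPM in WT. Its blocked log2 fold change was -2.05 ± 0.30 against DH-LMP2A (edgeR adjusted p = 0.00554), and -2.09 ± 0.60 without the block (adjusted p = 0.104). Against WT it was -2.28 ± 0.31 with the block (adjusted p = 0.00546) and -2.52 ± 0.59 without (adjusted p = 0.0519). Vdr, the vitamin D receptor, had a blocked value of -0.69 ± 0.16 against DH-LMP2A (adjusted p = 0.0373), and -0.67 ± 0.16 without it (adjusted p = 0.0608). DESeq2, with no block, called 3 genes of the list in each of these comparisons, where it called 4.85% and 4.34% of all genes. They were Stk39, Slc26a7 (adjusted p = 0.00788) and Vdr (0.00916) against DH-LMP2A, and Stk39, Slc26a7 (0.000211) and Wnk1 (0.00359) against WT. Wnk1, a kinase upstream of Slc12a3, had a log2 fold change of -0.47 ± 0.14 (SE) against WT, which edgeR did not call (adjusted p = 0.12). With no block edgeR also called Slc26a7 against DH-LMP2A without DH-LMP2A replicate 1 (adjusted p = 0.0392). It called Slc26a7 against WT without DH-LMP2A replicate 1 (0.0257) or without WT replicate 1 (0.0269) or 2 (0.0443), and Vdr without LCDD replicate 2 (adjusted p = 0.0466). All 10 podocyte markers were also negative in LCDD, both against DH-LMP2A and against WT. With the block edgeR called 2 and 1 of them, and without it 0 and 1. Which cells the Slc26a7 and Vdr reads came from, and the part of podocyte RNA in them, was not tested.

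In the code test 20 of 46 genes of that list were called (43.5%, against 18.6% of all genes). Among the 6 with the smallest p were Prss8, Sostdc1, Slc26a7, Kcnj16 and Atp6v0a4. From code NS161202 to code NS171018 the mean fell for Prss8, a protease that activates the epithelial sodium channel, from 44.4 to 8.43 CPM. It fell for Kcnj16, a basolateral potassium channel, from 87.1 to 16.6 CPM. Slc26a7 went the other way, from 5.79 to 14.5 CPM, and its library of code NS161202 was the lowest in each genotype.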

How the data were processed

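The authors deposited 1 table of raw read counts per gene, and its columns of exon spans and summed exon length are those featureCounts writes, per the file headers. The submitters' processing notes list STAR 2.4.0a, Subread 1.5.0-p3, featureCounts, DESeq2 and the builds mm10 and GRCm38. The labels name a stranded mRNA kit and reads of 75 bases from both ends. The gene annotation, the strand setting and the treatment of reads matching several places are not given in the sources used here. All 37 spans overlapped the gene of the same symbol in GENCODE M21 (GRCm38), and coordinates are those of the table.

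Genotype was taken from the labels, and replicates were numbered in accession order. The 37 members, their role groups and the other lists were chosen with earlier results of these data known, so no list is independent evidence. The other lists are 47 further distal genes, proximal tubule, podocyte, mesangial, glomerular endothelial, macula densa, red cell and leukocyte markers, and 4 Y-linked genes. Values in every library are given for members called between genotypes (there were 0), the 2 of each role with the highest per-length mean, the 5 with the smallest p for the title code, and 6 textbook markers. From the list of 47, the called genes were named, at most 6 per comparison, and 1 of these is not reported here.

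From the counts, edgeR 4.0.16 in R 4.3.3 kept 16738 of 46958 genes (filterByExpr, minimum count 10) and 30220 were dropped. TMM factors and 1 quasi-likelihood fit of all 13 libraries were used, with Benjamini-Hochberg adjustment over the genes tested. A gene was called at an adjusted p under 0.05. CPM values are TMM-scaled, log2 CPM uses a prior count of 2, and the floor of 3 counts (0.0970 to 0.185 CPM) covers counting error only, since the libraries carry no molecular identifiers. Chi-square per degree of freedom was 12.6 to 234 over 22 pairs of libraries of one genotype, so none looked like a library deposited a second time.

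Libraries sharing a code may be paired. The correlation of their deviations from the genotype means was 0.153 to 0.593 over the 4 LCDD and DH-LMP2A pairs. It was -0.165 to 0.400 for LCDD and WT, and -0.159 to 0.568 for DH-LMP2A and WT. LCDD and DH-LMP2A libraries of different codes gave -0.599 to 0.524, with a mean of -0.139 against 0.421 for the same code. The mean was higher within a code but the ranges overlap, so this check does not settle a pairing. The steps were tested on simulated counts. DESeq2 1.42.0 was the other tool. The alternatives changed the tool, the size factors or the filter, added the code as a block or marker sums as covariates, or left out genotypes or libraries. Leaving out the 3 libraries of code NS161202 was chosen after seeing the data.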

Additional observations from a re-analysis of the deposited data

Results flagged for a closer look

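The 2 values below are listed here because 1 library lay far from the rest of its genotype in a group of 4 or 5, by Dixon's criterion on log2 CPM. The criterion was applied to 123 groups, of which chance alone would mark about 6.15. Slc12a3 stood at 7.34 in DH-LMP2A replicate 1, above 5.93 to 6.12 in the other libraries of that genotype. Elf5 stood at -1.5 in LCDD replicate 1, where it had 7 counts, and at -3.57 in the other LCDD libraries, where it had 0.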

How the results depend on the processing

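Over 16 named members, 3 genotype comparisons and the alternatives tried, 1104 values were computed: 0 were called (lowest adjusted p 0.0611, by the tool of each alternative) and 167 changed sign. The replicate block (title code) changed no member's genotype call. In LCDD against DH-LMP2A the log2 fold change changed sign with the proximal tubule covariate to 0.00896 for Umod, 0.0893 for Slc12a1, 0.608 for Aqp2 and 0.123 for Slc4a1, and with the replicate block and that covariate to 0.377 for Aqp2. Without the libraries of code NS161202, an alternative chosen after seeing the data, it was 0.0396 for Umod, 0.0297 for Slc12a1 and 0.162 for Aqp2. Leaving out 1 library at a time gave -0.794 to 0.114 for Umod, -0.6 to 0.218 for Slc12a1, -1.93 to 1.23 for Aqp2 and -1.33 to 0.315 for Slc4a1. The number of members called for the title code, 14 with edgeR, was 25 with DESeq2, 0 with the proximal tubule covariate, 2 without the single-mouse WT libraries, 1 in LCDD and DH-LMP2A alone and 0 without code NS161202. Leaving out 1 library at a time gave 1 (without WT replicate 1) to 28 (without WT replicate 5). Over all genes, LCDD against DH-LMP2A gave 334 calls with edgeR, 812 with DESeq2 and 1021 with the replicate block. LCDD against WT gave 308, 726 and 536, and DH-LMP2A against WT gave 105, 458 and 562. The cause of these changes was not tested. At 16687509 to 30587890 counts per library, Elf5 was too low to be tested.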
